A study of Homo sapiens with 19 samples.

Results

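H1-EED-/-/EED-OE cells kept in doxycycline (DOX) were compared with EED-/- H1 cells, to see which genes stayed silent or active when the EED of cells without their own copy came from a transgene. The comparison used 3 of the 19 RNA-seq samples of the series, chosen by their labels alone: 1 sample of H1-EED-/-/EED-OE cells with DOX and 2 samples of EED-/- H1 cells without it. All derive from H1, an established human embryonic stem cell (hESC) line. The DOX sample was identified by its description and treatment label, and its title also carries a day tag (D28) that the labels do not explain. In both groups the endogenous EED carries a CRISPR/Cas9 deletion of a functional domain. The inducible cells had first received a lentiviral EED transgene that DOX switches on, and the deletion was then made in them under puromycin selection, with clones expanded in DOX. The 2 EED-/- H1 samples carry different clone codes in their titles, and nothing in the labels says whether they were grown side by side. For reference, values are also given for WT H1 cells (2 samples, neither allele targeted, no transgene) and for the inducible cells 28 days after DOX had been withdrawn (1 sample). The transgene, the presence of DOX, the clone and the state of differentiation all differ between the groups and cannot be told apart here. The same holds for any difference in processing, since some gene names differ between the data of the inducible and the knockout lines.

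Polycomb repressive complex 2 (PRC2) adds methyl groups to lysine 27 of histone H3, and the trimethylated mark, H3K27me3, is known for marking silent developmental genes in stem cells. EZH1 or EZH2 is the catalytic subunit, SUZ12 holds the complex together, and EED binds the mark and stimulates the enzyme, so that cells without EED lack a working complex. PRC1, a separate complex, can recognise the mark through its CBX subunits. In hESCs, genes for transcription factors of the germ layers, the HOX clusters and the CDKN2A-CDKN2B locus are well-known carriers of the mark.

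Expression is given as TPM, transcript abundance that the authors estimated per gene on a scale with the same total in every sample. It is corrected for transcript length, so that levels can be set beside each other between genes. A log2 ratio is the difference in log2(TPM + 1) between the DOX sample and the mean of the 2 EED-/- H1 samples, and it understates the change of genes with low TPM. A gene was counted as lower or higher with DOX when its TPM + 1 differed at least 3-fold, in the same direction, from each of the 2 EED-/- H1 samples. A gene was kept if any of the 3 samples had it at a TPM of 1 or more. Since the DOX group holds 1 sample, no test was made. The spread between the 2 EED-/- H1 samples is the only one within the groups compared, and it does not cover the DOX cells. Read depth is unknown from TPM.

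The labels call all 3 samples embryonic stem cells. POU5F1 (OCT4), the transcription factor that defines the pluripotent state, had a TPM of 2916 in the DOX sample and of 2531 and 2428 in the WT H1 samples, but of 5.27 and 3.62 in the EED-/- H1 samples. The EED-/- H1 samples thus lack the defining marker of their labelled cell type, whereas the DOX sample carries it. In bulk RNA, fewer cells of a type and less RNA per cell cannot be told apart, and this holds for every gene below.

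Of 18431 genes kept, 3581 (19.4%) were lower in the DOX sample than in both EED-/- H1 samples and 1053 (5.71%) were higher. Lower genes made up 77.3% of the genes counted. At 8-fold or more against both samples, 1007 genes were lower and 233 higher, and at 64-fold or more 64 were lower and 13 higher. A further 1614 genes were lower and 560 higher by 3-fold against only 1 of the 2 samples, and 3 genes went in opposite directions. The 2 EED-/- H1 samples themselves differed by 3-fold or more in 410 of the 17655 genes at a TPM of 1 or more in either (2.32%), and 104 of the counted genes were among these. DOX cells also had fewer genes at a TPM of at least 1, 14462 against 16868 and 16439.

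The whole distribution was shifted: the median log2 ratio over the genes kept was -0.67 against the first and -0.51 against the second EED-/- H1 sample, and the ratios below are to be read against this. When the 3 samples were rescaled by median ratios, 2652 genes were lower and 1728 higher, so that lower genes made up 60.5% of those counted. Each of the 1053 higher genes was still counted, and 2652 of the 3581 lower ones were. Rescaling moved the ratios upward, with a median of -0.25 in place of -0.61. Higher genes could thus hardly be lost, and that they were kept is no check on them. Counts within the gene lists below are to be read against the 19.4% and 5.71% of all genes. A gene kept only because it was expressed on one side had to differ, so these counts describe the samples and are not support by themselves.

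**Figure D1:**
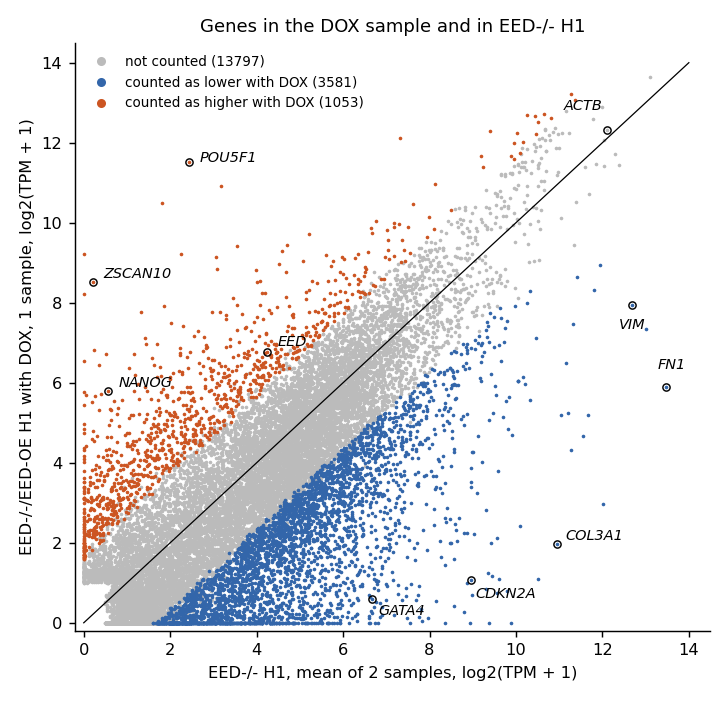
Each point is 1 of the 18431 genes kept, at its mean log2(TPM + 1) in the 2 EED-/- H1 samples (horizontal axis) and its log2(TPM + 1) in the DOX sample (vertical axis), with the line of equality. The 3581 genes counted as lower with DOX lie below the line and include FN1, VIM, COL3A1, CDKN2A and GATA4. The 1053 counted as higher lie above it and include POU5F1, ZSCAN10, NANOG and EED.

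EED (ENSG00000074266, chromosome 11, 86201212-86278813 on GRCh38) was checked first. Its TPM was 109 in the DOX sample, 14.3 and 22.4 in the EED-/- H1 samples and 17.3 and 22.0 in WT H1, and its log2 ratio was 2.54. The DOX sample stood above every other sample, while the EED-/- and WT H1 samples overlapped: a whole-gene TPM counts the exons outside the deletion, so it does not check the deletion itself. Without DOX at day 28 the TPM was 31.6. EED was the only one of the 6 core PRC2 genes that was counted. EZH2 had a TPM of 36.3 with DOX against 18.7 and 33.1, SUZ12 14.97 against 25.6 and 21.2, and EZH1 15.9 against 17.2 and 11.9. RBBP4 and RBBP7, the histone-binding subunits, had log2 ratios of -0.85 and 0.87. Among 8 accessory PRC2 genes, of which 7 were kept, LCOR alone was counted, with a TPM of 1.58 against 15.02 and 13.98. JARID2, which helps bring PRC2 to its targets, stood at 52.3 with DOX against 21.9 and 28.8, with 119 and 106 in WT H1.

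Of the 19 PRC1 genes, all kept, 5 were lower with DOX and 1 was higher, shares not far from those of all genes. BMI1, a PCGF subunit of the canonical complex, had a TPM of 3.14 against 62.2 and 61.2, with 2.12 and 2.99 in WT H1. CBX8, a subunit that reads H3K27me3, had 0.96 against 16.8 and 7.56. PHC2 had 8.77 against 98.0 and 91.0 and YAF2 0.22 against 21.2 and 21.1. PHC1, a paralogue of PHC2, went the other way, with a TPM of 525 against 36.4 and 29.1. The DOX sample thus had the PHC1-high, PHC2-low pattern of WT H1, where PHC1 was at 698 and 596 and PHC2 at 6.93 and 5.07. Of the H3K27 demethylases, KDM6B was lower (1.49 against 36.1 and 28.1) and KDM6A was not counted (21.2 against 38.2 and 46.7).

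The promoters of 4 genes with large differences, picked after their values were seen, are shown, since CG pairs, the sites of DNA methylation, are dense at many promoters that PRC2 is known to occupy. CDKN2B and HOXD10 were listed at 0 in the DOX sample and well above it in the EED-/- H1 samples, and NANOG and ZSCAN10 were near 0 in the EED-/- H1 samples. Each line is the 250 bases before the start site in the RefSeq table (GRCh38.p14), read 5′ to 3′ on the strand of the gene, with the CG pairs in capitals.
CDKN2B, chr9:22009306-22009555, minus strand: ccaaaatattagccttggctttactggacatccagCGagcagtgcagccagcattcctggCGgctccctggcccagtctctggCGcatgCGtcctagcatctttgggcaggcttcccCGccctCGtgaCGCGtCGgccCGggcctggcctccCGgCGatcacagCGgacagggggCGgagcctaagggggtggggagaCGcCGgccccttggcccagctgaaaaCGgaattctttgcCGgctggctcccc
HOXD10, chr2:176116528-176116777, plus strand: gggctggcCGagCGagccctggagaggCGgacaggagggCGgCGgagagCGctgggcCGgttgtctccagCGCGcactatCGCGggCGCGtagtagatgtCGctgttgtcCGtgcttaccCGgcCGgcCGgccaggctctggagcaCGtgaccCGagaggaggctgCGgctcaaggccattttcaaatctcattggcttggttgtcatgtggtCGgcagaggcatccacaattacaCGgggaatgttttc
NANOG, chr12:7789152-7789401, plus strand: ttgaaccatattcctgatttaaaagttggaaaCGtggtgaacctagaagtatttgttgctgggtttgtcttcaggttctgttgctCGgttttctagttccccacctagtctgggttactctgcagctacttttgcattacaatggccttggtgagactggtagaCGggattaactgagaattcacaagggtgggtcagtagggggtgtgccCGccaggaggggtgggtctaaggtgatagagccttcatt
ZSCAN10, chr16:3099295-3099544, minus strand: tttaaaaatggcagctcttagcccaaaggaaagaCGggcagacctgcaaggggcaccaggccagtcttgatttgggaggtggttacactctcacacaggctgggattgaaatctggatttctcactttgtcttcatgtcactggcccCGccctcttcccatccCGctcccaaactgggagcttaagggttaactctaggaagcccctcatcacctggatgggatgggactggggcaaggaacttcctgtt
CG reads the same on both strands. The CDKN2B and HOXD10 windows held 18 and 23 CG pairs, and the NANOG and ZSCAN10 windows held 4 and 3. Among all 35116 promoters of the table the median was 11, and 93.9% held at least 1. At least 18 pairs stood in 36.8% of them, at least 23 in 25.8%, at least 4 in 70.7% and at least 3 in 77.1%. Over all counted genes the counts lay close together. Within 500 bases on either side of the GENCODE start site the median was 71 CG pairs for the genes kept, 75 for those lower and 66 for those higher with DOX, with quartiles of 45 and 95, 45 and 99, and 37 and 89.

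Pluripotency genes were higher in the DOX sample. Of 18 pluripotency transcription factors, all kept, 13 were higher and 0 were lower, with a median log2 ratio of 3.56. POU5F1 (chromosome 6, 31164337-31180731) had a log2 ratio of 9.08. ZSCAN10, a zinc finger protein of stem cells, had a TPM of 367 against 0.25 and 0.07, with 219.6 and 199.7 in WT H1, and a log2 ratio of 8.31. NANOG had 54.1 against 0.60 and 0.37, below the 140.4 and 97.5 of WT H1. SOX2, which pairs with POU5F1 on DNA, had 131 against 22.6 and 16.1, below the 165 and 219 of WT H1. SALL2, FOXD3, ZIC2, VRTN and FOXH1 were also higher, with log2 ratios between 3.46 and 5.56. UTF1, a chromatin-bound factor, was at 25.8 with DOX and listed at 0 in both EED-/- H1 samples. SALL4 did not differ in this way, with 43.3 against 43.5 and 43.7. ZFP42 (88.5 against 33.7 and 17.8) and MYCN (53.5 against 20.0 and 17.8) were higher but short of the fold in 1 or both samples. ETV5 was not counted either and was lower, with 20.1 against 46.5 and 29.75.

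Of 12 RNA-binding and chromatin genes of the pluripotent state, all kept, 8 were higher and 1 was lower. DNMT3B, a DNA methyltransferase that primed stem cells express strongly, had a TPM of 434 against 30.9 and 19.6. L1TD1, an RNA-binding protein, had 193 against 7.47 and 10.2, below the 557 and 634 of WT H1. LIN28A, which blocks the maturation of let-7 microRNAs, had 617 against 49.0 and 184, and so differed between the EED-/- H1 samples as well. DPPA3 was lower (1.10 against 6.04 and 5.49), but was no longer counted after rescaling. The surface and signalling genes were mixed: of 16, of which 15 were kept, 4 were higher (TDGF1, THY1, LCK and ALPL) and 1, NODAL, was lower. TDGF1, the NODAL co-receptor, had 625 against 20.8 and 25.4, and NODAL itself 8.88 against 34.2 and 38.1, a call that was lost after rescaling. EPCAM and CDH1, epithelial adhesion molecules, were not counted, with 180 against 223 and 564 and 64.5 against 75.8 and 142.

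**Figure D2:**
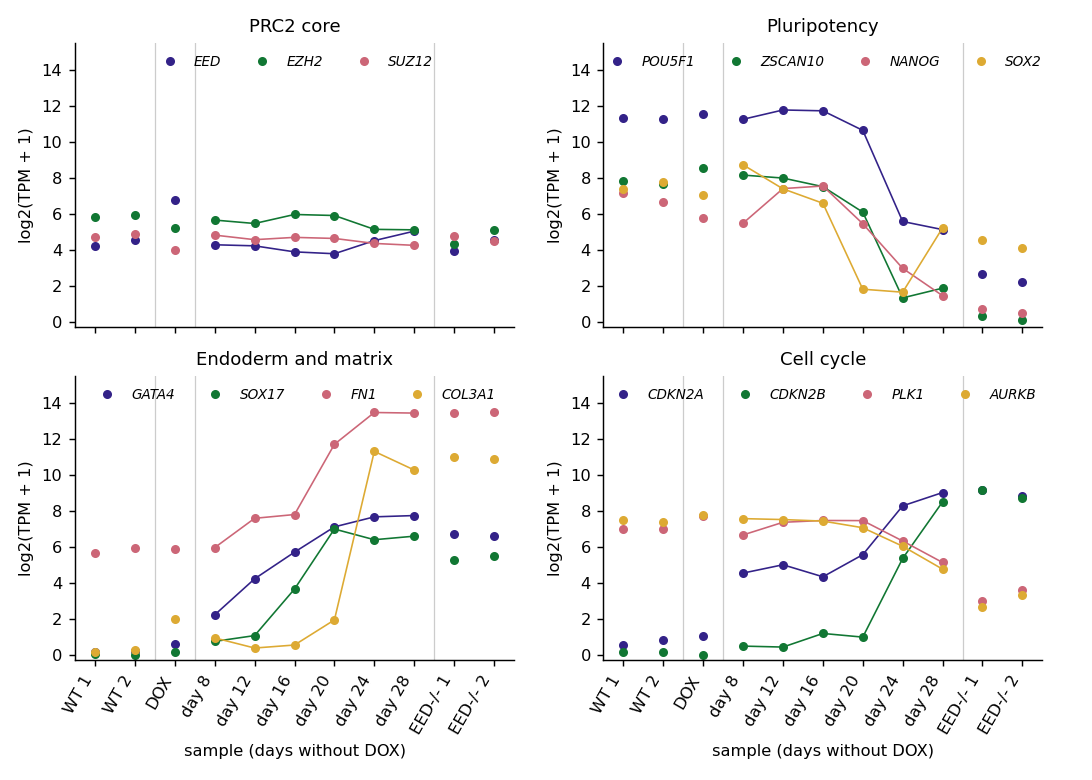
Log2(TPM + 1) of selected genes in WT H1 (2 samples), in the inducible cells with DOX and 8 to 28 days after its withdrawal (1 sample each, joined by lines for the days) and in EED-/- H1 (2 samples). EED stands highest in the DOX sample. Of the pluripotency and cell cycle genes drawn, POU5F1, ZSCAN10, PLK1 and AURKB are above their WT H1 levels in the DOX sample. NANOG and SOX2 are below theirs. GATA4, SOX17, CDKN2A and CDKN2B are near 0 in the DOX sample.

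Genes of the endoderm were lower. Of 17 endoderm transcription factors, of which 16 were kept, 12 were lower and 0 were higher, with a median log2 ratio of -3.49. GATA4, a zinc finger factor of endoderm and heart, had a TPM of 0.52 against 103 and 98.1, with 0.13 and 0.16 in WT H1. SOX17 had 0.10 against 37.1 and 44.9, and GATA6 0.22 against 27.7 and 39.5. HNF4A, a regulator of liver genes, was listed at 0 with DOX and stood at 19.9 and 24.3. FOXA3 was the exception in level, with 22.3 in the DOX sample against 7.68 and 7.39. Of 19 secreted proteins of liver and yolk sac, all kept, 13 were lower and 0 were higher. TTR and APOA2, which carry thyroid hormone and lipid, were listed at 0 with DOX, and stood at 535 and 1694 and at 107 and 327 without the transgene. AFP had 2.97 against 163 and 768. APOE did not follow, with 1329 against 1186 and 1676. The levels of this list in the EED-/- H1 samples were uneven, with FGB at 6.75 and 84.8 and RBP4 at 8.70 and 64.02.

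Mesoderm genes were low in the DOX sample too. Of 18 cardiac and lateral mesoderm transcription factors, all kept, 14 were lower and 0 were higher. TBX3 had 0.14 against 46.5 and 51.3, and NKX2-5, an early heart factor, 0.13 against 40.2 and 26.1. Of 10 primitive streak genes, of which 9 were kept, 4 were lower (GSC, EVX1, FOXC1 and FOXC2) and TBX6 was higher, with 6.23 against 0.16 and 0.15. TBXT (brachyury) was listed at 0 with DOX and stood at 3.74 and 1.56, short of the fold in the second sample. Of 18 endothelial and blood genes, of which 17 were kept, 14 were lower and 0 were higher. PECAM1 and CDH5, junction proteins of endothelium, had 0.10 against 153 and 85.2 and 0.41 against 146 and 90.1. KDR, a VEGF receptor, was not counted, with 38.5 against 135 and 95.5. It was also expressed in WT H1, at 50.9 and 66.1.

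The largest differences by list were in the extracellular matrix. Of 18 collagens and matrix proteins, all kept, 17 were lower and 0 were higher, with a median log2 ratio of -6.01. COL1A1, a chain of the main fibrillar collagen, had a TPM of 24.4 against 4901 and 1813, and COL4A1, a basement membrane collagen, 19.1 against 2946 and 2104. SPARC, a matrix glycoprotein, had 160.4 with DOX against 9350.1 and 7216. COL6A1 was the member not counted, with 117 against 531 and 292. Summed over the list, TPM was 546 in the DOX sample, 33841 and 22666 in EED-/- H1 and 771 and 797 in WT H1. FN1 (fibronectin, chromosome 2, 215360440-215436073) had 58.9 against 11338 and 11452, a log2 ratio of -7.57. FN1 belongs to 9 genes of epithelial-mesenchymal transition, of which 7 were lower with DOX and 1 was higher. VIM, an intermediate filament, had 245 against 8087 and 5399.8, ZEB2 0.26 against 24.8 and 21.2, and CDH2 10.6 against 556 and 439. SNAI1, a repressor of CDH1, was the higher gene, with 27.4 against 5.46 and 4.43. Of 10 smooth muscle genes, all kept, 6 were lower (4 after rescaling). CNN1 (calponin) was not counted, with 33.6 against 102 and 104, and 28.15 and 32.79 in WT H1. ACTA2, smooth muscle actin, had 6.03 against 614 and 658, while MYH11 and DES, markers of mature muscle, stayed below 4 TPM in all 3 samples.

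**Figure D3:**
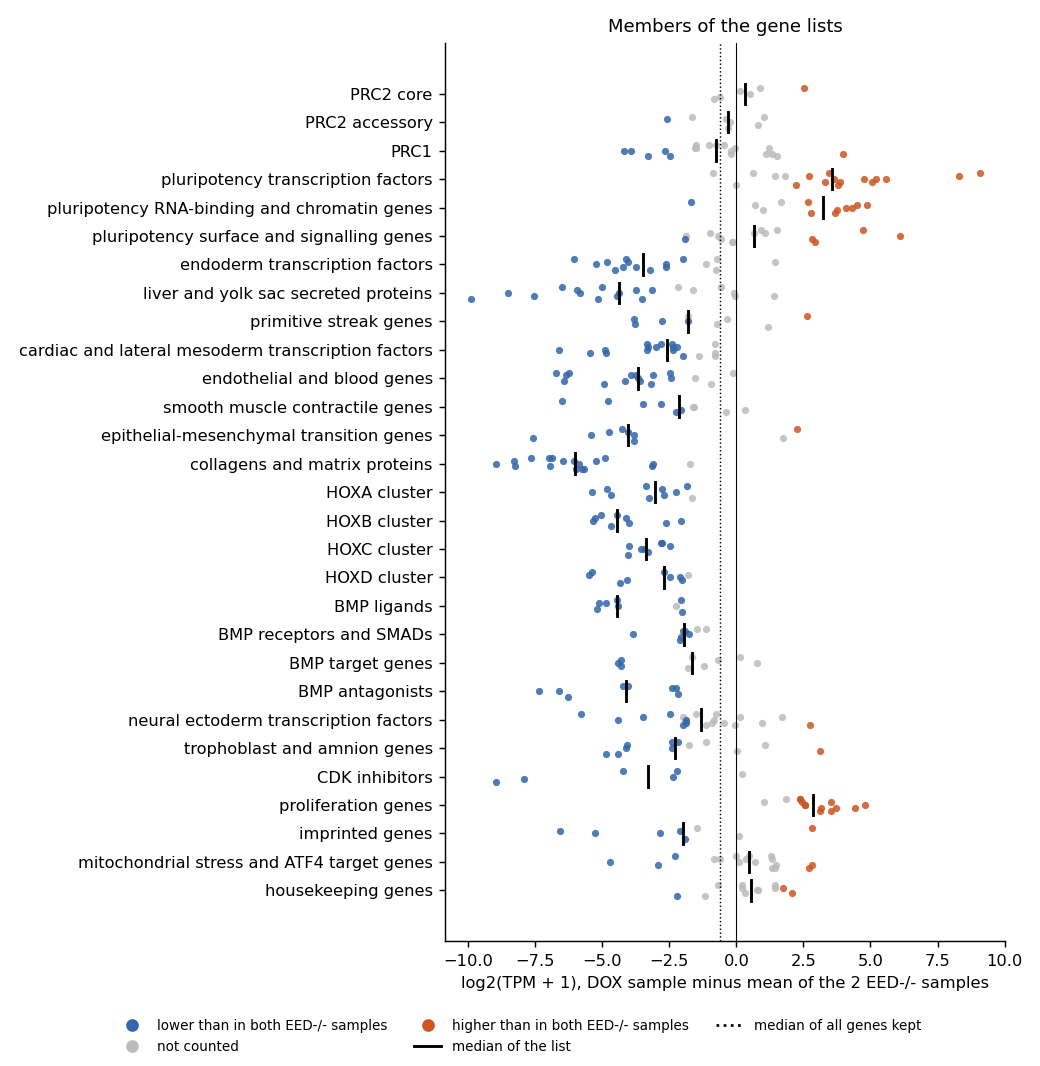
Each point is a kept member of 1 of 29 gene lists, at its log2(TPM + 1) in the DOX sample minus the mean of the 2 EED-/- H1 samples. Bars mark list medians and the dotted line the median of all genes kept, -0.61. The 3 lists farthest to the left by median are collagens and matrix proteins (-6.01), the HOXB cluster (-4.44) and BMP ligands (-4.43), and the pluripotency transcription factors (3.56) lie farthest to the right.

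The HOX genes, which pattern the body axis, were listed at or near 0 with DOX. Of 39 HOX genes in the 4 clusters, 36 were kept, 34 were lower and 0 were higher. In the DOX sample 33 of the 39 were listed at 0 and the highest was HOXB6 at 0.42. In WT H1, 34 were listed at 0 in both samples and the highest value was 0.19. In EED-/- H1 the median over the 39 genes was 10.8 in the first sample and 8.27 in the second, and 34 of the 39 were higher in the first. The HOXA and HOXB clusters had 9 and 9 lower genes, HOXC 8 and HOXD 8. Genes at both ends of the HOXD cluster were expressed in EED-/- H1, where HOXD1 stood at 8.02 and 4.99, HOXD10 at 38.7 and 42.3 and HOXD13 at 11.8 and 21.3. HOXB9 had 0.18 with DOX against 62.1 and 35.3, and HOXA10 0.25 against 59.6 and 43.2. HOXA6 and HOXD3 were kept but not counted, with 2.88 and 1.51 and 3.60 and 1.64 in EED-/- H1 and 0 with DOX. Most of these levels are low, and with a pseudocount of 5 in place of 1 the counts of lower genes were 3, 7, 2 and 4 in the 4 clusters.

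**Figure D4:**
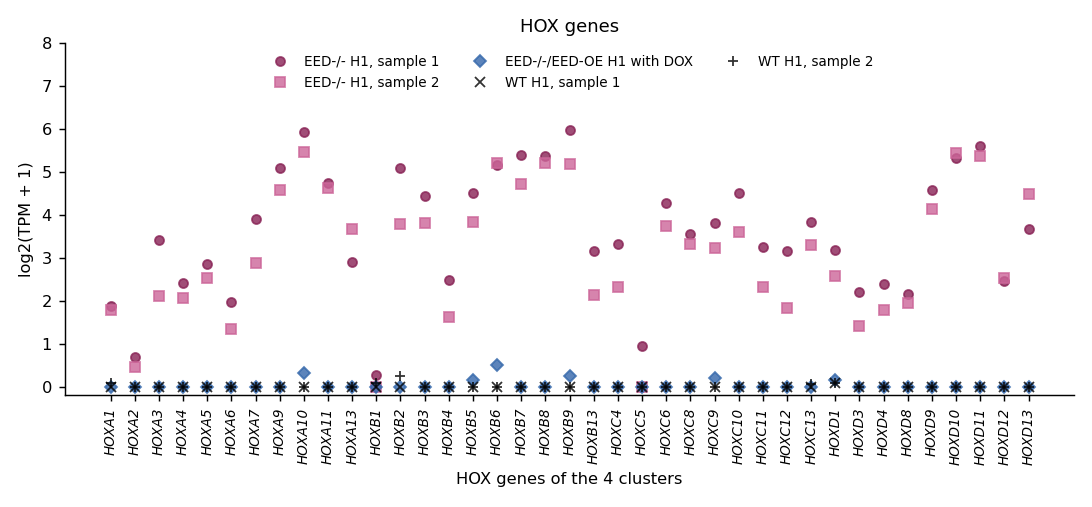
Log2(TPM + 1) of the 39 HOX genes of the 4 clusters in the 2 EED-/- H1 samples, the DOX sample and the 2 WT H1 samples. The DOX sample lies at or near 0 throughout, with a highest TPM of 0.42, together with WT H1, and the EED-/- H1 samples stand above it in every gene except HOXB1 and HOXC5, which are at 0 in the second EED-/- H1 sample.

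Genes of the BMP pathway were lower at most levels. BMP ligands bind paired receptors that phosphorylate SMAD1, SMAD5 and SMAD9, which enter the nucleus with SMAD4 and switch on ID genes among others. Of 8 ligands, all kept, 7 were lower and 0 were higher, with a median log2 ratio of -4.43. BMP4 had a TPM of 3.77 against 92.5 and 207, with 2.5 and 3.25 in WT H1. BMP2 had 1.18 against 48.4 and 45.9, and GDF6 0.24 against 55.2 and 31.7. BMP7 had 11.1 against 46.5 and 49.9, and was not counted after rescaling. The antagonists, secreted proteins that trap BMP or related ligands, were lower as well, 8 of 8. GREM1 had 0.09 against 215 and 146, CER1 2.12 against 463 and 203, and FST 4.03 against 477 and 324. Of 8 receptors and SMADs, 6 were lower. BMPR2, the type II receptor, had 2.12 against 50.5 and 37.8, and remained counted in each of these settings, while the list came down to 3 lower genes after rescaling and to 1 when the ratios were centred for transcript GC content and length. Of 9 target genes, 3 were lower and 0 were higher. MSX1, MSX2 and BAMBI had log2 ratios between -4.40 and -4.30. ID1 and ID3, the usual readouts of BMP-SMAD activity, were not counted, with 171 against 133 and 186 and 232 against 136 and 137. ID2 had 44.4 against 46.4 and 111 and ID4 4.30 against 8.62 and 14.2, and neither was counted. The inhibitory SMAD6 and SMAD7, not counted either, had log2 ratios of -1.79 and -1.65, and the median of the list was -1.65. At 2-fold, and when centred for GC content and length, 5 members were lower.

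Of 25 neural ectoderm transcription factors only 20 were kept, and 7 were lower (4 after rescaling) and 1 was higher with DOX. PAX6, an early neural factor, had 0.48 against 129 and 50.0, DLX5 was listed at 0 and stood at 31.0 and 13.0, and ZIC1 had 1.32 against 23.6 and 26.5. POU3F1 was the higher gene, with 17.2 against 2.24 and 1.24. OTX2, an anterior factor, was not counted (14.99 against 22.0 and 33.8), and SOX1 stayed below 1 TPM in the 3 samples. Of 15 trophoblast and amnion genes, of which 12 were kept, 7 were lower and 1, GABRP, was higher. Among the 7, ISL1 and HAND1 also belong to the cardiac and lateral mesoderm list and were counted there too. KRT7, a keratin of simple epithelia, had 13.8 against 256 and 383, and GATA3 0.22 against 20.9 and 18.8. GCM1, a defining factor of the placental syncytium, was listed at 0 in all 3 samples.

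Inhibitors and drivers of the cell cycle were arranged in opposite ways. Of 7 CDK inhibitor genes, of which 6 were kept, 5 were lower with DOX and 0 were higher. CDKN2A (chromosome 9, 21967752-21995301), which encodes p16 and ARF, had a TPM of 1.10 against 563 and 445. CDKN2B (22002903-22009305), its neighbour, was listed at 0 with DOX and stood at 562 and 428. CDKN1A (p21), a target of p53, had 45.8 against 1246 and 606, and was above WT H1, at 6.15 and 21.4. CDKN1B did not differ, with 22.4 against 20.4 and 17.9. Of 14 proliferation genes, all kept, 12 were higher and 0 were lower, with a median log2 ratio of 2.84. The summed TPM of these 14 was 2075 with DOX, 299 and 366 in EED-/- H1 and 2359 and 2381 in WT H1. AURKB and PLK1, mitotic kinases, had 218 against 5.28 and 8.84 and 208 against 6.83 and 11.2. MCM3 and MCM5, parts of the replicative helicase, had 309 against 29.2 and 39.95 and 226 against 21.7 and 15.7. PCNA and CDK1 were the members not counted, with 294 against 149.7 and 138 and 56.0 against 10.95 and 19.8.

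Of 10 imprinted genes, 8 were kept, 5 were lower (3 after rescaling) and 1 was higher. IGF2, a growth factor, had 3.74 against 368 and 539.8, and DLK1 2.53 against 179.9 and 99.0. SNRPN was higher, with 2001 against 294 and 267. H19, next to IGF2, could not be placed, since it stood at 8.07 with DOX, 488 in the first and 0.27 in the second EED-/- H1 sample. Of 18 genes of mitochondrial stress and the ATF4 response, 17 were kept, 3 were lower (ATF3, DDIT3 and GDF15) and 2 higher (PHGDH and HSPE1). After rescaling 6 of this list were higher. GDF15, a stress-induced cytokine, had 18.2 against 595 and 422. PHGDH, the entry enzyme of serine synthesis, had 1020.02 against 115 and 180.4. ATF4 itself had 702 against 492 and 602. Of 12 housekeeping genes, 1 was lower, B2M (127 against 611 and 567), and 2 were higher, HPRT1 and GAPDH (4 after rescaling). GAPDH had 8645 against 2418 and 2836, and ACTB 5095 against 4768 and 4109. The median log2 ratio of this list was 0.55, against -0.61 over all genes kept.

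Among all genes counted, the 15 that were lower by the most in the nearer of the 2 EED-/- H1 samples were S100A6, TTR, COL3A1, IGFBP7, IGFBP5, CDKN2B, MMP1, ANKRD1, LUM, CST1, APOA1, ITGA11, NPPB, ANXA1 and POSTN. S100A6, a calcium-binding protein, had a TPM of 1.12 with DOX and 1521 and 1391 in EED-/- H1. In WT H1 it stood at 59.0 and 46.3, above the DOX sample. IGFBP7, which binds insulin-like growth factors, had 0.74 against 1014 and 772, and CST1, a cystatin, 6.81 against 2171 and 7977. MMP1, a collagenase, and NPPB, a natriuretic peptide, were listed at 0 with DOX and stood at 1122 and 395 and at 247 and 438. In the other direction, 10 of the 15 had a symbol in the annotation: TUBA1B-AS1, POU5F1, ZSCAN10, HHLA1, CRABP1, FOXD3-AS1, ABHD12B, LCK, SFRP2 and LINC00678. HHLA1 had 1926 against 11.9 and 5.30, and CRABP1, which binds retinoic acid, 596 against 5.23 and 2.61. SFRP2, a secreted WNT modulator, had 685 against 10.4 and 10.97. TUBA1B-AS1 was at 595 with DOX and listed at 0 in both EED-/- H1 samples, but the sources do not say that strand was used in counting, so its reads cannot be told from those of its partner gene. Long non-coding RNAs made up 17.1% of the higher genes and 8.96% of the lower ones, against 15.9% of the genes kept.

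The counted genes were then followed in samples that the counts had not used, by setting WT H1 against other lines. In WT H1 against SUZ12-/- H1 (2 samples each), 42.2% of the 3581 genes lower with DOX were at least 3-fold lower in every pair of samples, against 12.3% of all genes kept. Of the 1053 genes higher with DOX, 47.3% were at least 3-fold higher in WT H1, against 4.33%. Against H1 cells without EZH1 and EZH2 (2 samples), the shares were 35.9% of the lower genes (8.38% of all) and 46.2% of the higher genes (3.6% of all). Against the inducible cells at day 28 without DOX (1 sample), they were 48.5% (13% of all) and 50.8% (4.91% of all). At day 8 without DOX they were 3.3% (2.08% of all) and 2.09% (0.922% of all). EZH2-/- H1 cells, which keep EZH1, had 0.0838% of the lower genes (0.0868% of all) and 0.38% of the higher genes (0.0271% of all). The shares in the lines that lack PRC2 function and at day 28 stood well above those of all genes. Those at day 8 and in EZH2-/- H1 were small in size. At day 8 both were still above those of all genes, as was that of the higher genes in EZH2-/- H1. The EZH2-/- H1 shares rest on 3 lower and 4 higher genes. These 5 comparisons share the WT H1 samples, and none uses the DOX or EED-/- H1 samples, although the days without DOX come from the same line as the DOX sample. A day has 1 sample, so fewer pairs had to agree there than in the lines with 2 samples, and its shares met a looser rule. The 2 double knockout samples differed by 3-fold or more in 6.38% of their genes, against 0.367% for SUZ12-/- H1. Shares are therefore not on equal terms between the comparisons. The SUZ12-/- and double knockout lines, like EED-/- H1, were low in POU5F1, at 47.0 to 149.8.

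The ratios also moved with properties of the transcripts. With the genes kept in 5 groups of equal size, from the lowest to the highest GC content, the median log2 ratio went from -1.10 to -0.23 against the first and from -1.02 to 0.08 against the second EED-/- H1 sample. The share of genes lower with DOX fell from 28.8% to 11.5% and the share higher rose from 2.39% to 9.53%. From the shortest to the longest of 5 groups by length, the median went from -0.27 to -1.23 and from -0.12 to -1.10. A gradient with GC content was present between the DOX sample and WT H1 as well, from -0.51 to 0.34. When the ratios were centred within these groups of GC content and length, a setting chosen after the data had been seen, 3287 genes were lower and 922 higher, and 2738 and 778 of them were among those counted before. Of the listed genes counted as lower, 172 of 180 were still counted, and of those counted as higher 45 of 48. GAPDH, SNAI1 and ETV4 were the higher genes no longer counted.

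**Figure D5:**
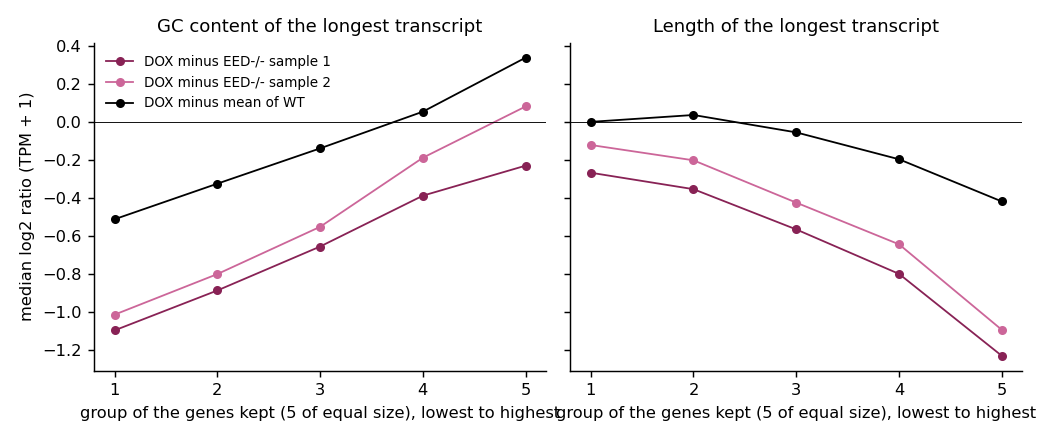
Median log2 ratio of TPM + 1 in 5 equal groups of the kept genes by GC content (left) and length (right) of the longest transcript, for the DOX sample against each EED-/- H1 sample and against the mean of WT H1. All 3 curves rise with GC content, from -1.10, -1.02 and -0.51 to -0.23, 0.08 and 0.34, and are lowest in the group of the longest transcripts.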

How the data were processed

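TruSeq RNA libraries were sequenced by the authors, who mapped the reads to GRCh38 transcripts with Bowtie2 and estimated expression with RSEM. Their methods also name normalization with EDASeq, and the values do not show whether it was applied to the deposited TPM. The deposited unit is TPM per gene for 33382 genes in each sample, and every sample sums to nearly the same total, so depth is unknown. Samples were joined by Ensembl identifier, since 33 gene names differed between the file sets of the knockout lines and of the inducible line. Current symbols, positions, GC content and length came from GENCODE release 44 for 32481 genes.

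Here log2(TPM + 1) of the DOX sample was compared with each EED-/- H1 sample, among genes that reached a TPM of 1 in any of the 3. Genes past 3-fold against both were counted. No test was made, since the DOX group holds 1 sample. The script was tested on simulated data. Of the genes kept, 17 (Y-linked genes and XIST, including a member of the H3K27 demethylase list) are not reported. The members, gene lists and comparisons were chosen with earlier results of these data known. Named genes are the PRC2 core, members of 30 lists (371 genes, 351 kept), and the 15 genes of each direction with the largest ratio against the nearer EED-/- H1 sample. CG pairs were counted around GENCODE start sites, because the RefSeq promoter table matched 71.6% of the genes kept, too few for that check. Promoter sequences are from RefSeq on GRCh38.p14. Alternatives were other pseudocounts, filters and folds, leaving out either EED-/- H1 sample, their mean, rescaling by median ratios and, added after the data had been seen, centring by GC content and length. Scripts ran in Python 3.11.15 (pandas 2.3.3, numpy 2.4.6), with figures by matplotlib 3.10.9. A few listed genes are not reported here by name.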

Additional observations from a re-analysis of the deposited data

How the results depend on the processing

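The counts of genes lower and higher with DOX, 3581 and 1053, moved by over 1.5 times, one or both, under 5 alternatives. A pseudocount of 0.1 gave 5427 lower genes (1454 higher), a pseudocount of 5 gave 1861 and 589, 2-fold gave 5910 and 2138, and 5-fold gave 1830 and 476. Rescaling by median ratios gave 1728 higher genes and 2652 lower. Leaving out either EED-/- H1 sample gave 4061 to 4715 lower and 1304 to 1362 higher genes, more than before because 1 sample fewer has to agree. No filter, a TPM of at least 5, the mean of the 2 EED-/- H1 samples and centring by GC content and length kept both counts within 1.5 times. With the pseudocount of 5, several lists lost many of their lower genes. Lower were 4 cardiac and lateral mesoderm factors instead of 14, 7 endoderm factors instead of 12 and 4 trophoblast and amnion genes instead of 7. The same held for 4 neural ectoderm factors instead of 7, 2 BMP receptor and SMAD genes instead of 6 and 5 BMP antagonists instead of 8. Many of these genes are weakly expressed, but not all. SMAD1 stood at 54.3 and 29.5 and SMAD5 at 35.1 and 35.8 in EED-/- H1, with log2 ratios of -2.12 and -1.93. No log2 ratio of a counted gene among the lists and the 15 named in each direction changed sign in the 6 alternatives run for single genes. Genes past 3-fold against both samples could hardly do so, and this is no support for them. Of the list medians only that of the PRC2 accessory genes changed sign, between -0.37 and 0.28. The cause of these shifts was not tested. No paired analysis was possible because the DOX group holds 1 sample. With 1 DOX sample, no spread between cultures of that line is known. With TPM alone, the counting error of low values is unknown as well.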

Other observations

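In some genes the samples of the inducible line stood apart whether or not EED was on. Some gene names differ between the data of the inducible line and of the knockout lines. The line and any difference in processing therefore cannot be told apart. In 12 genes, chosen after their values were seen, all 7 samples of the inducible line (with DOX and at each day without it) were at least 3-fold lower than both WT H1 and both EED-/- H1 samples. CAT, which encodes catalase, had a TPM of 0.20 with DOX and of 0 to 0.35 over the 7 samples, against 35.0 and 32.7 in EED-/- H1 and 14.4 and 13.2 in WT H1. HENMT1, a methyltransferase for small RNAs, was listed at 0 in all 7, and stood at 12.3 and 11.6 in EED-/- H1 and 6.39 and 7.53 in WT H1. ACOT2, a mitochondrial thioesterase, had 0.35 with DOX against 35.9 and 26.6, and TSPYL5 0.05 against 20.4 and 16.7. S100A6, the lower gene with the largest ratio to the nearer EED-/- H1 sample, was one of the 12: it stood at 1.12 with DOX, 6.85 at day 24 and 13.7 at day 28, against 1521 and 1391 in EED-/- H1. All 12 are among the genes counted as lower with DOX, and that they stayed low on every day without it is how they were chosen. No gene was higher in all 7 by the same rule, which is a count over all genes with no test.

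In the other direction, the DOX sample was at least 3-fold above both WT H1 and both EED-/- H1 samples in 27 genes and below them in 157. Among the 27 were EED, FXYD5 (594 against 85.1 and 76.0 in EED-/- H1 and 189 and 185 in WT H1), AGER (22.4 against 4.88 and 4.73, and 5.82 and 4.95) and MEF2B (16.3 against 2.24 and 1.75, and 2.12 and 3.91). Days without DOX were not part of this rule and could be as high, as for AGER at 36.3 on day 8 and 23.3 on day 28, and FXYD5 at 527 on day 24. These names too were chosen after their values were seen.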
